A study of Mus musculus with 9 samples.

Results

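The 8 genes described here mark Schwann cells, the glia of peripheral nerve, in mouse prostate: Mbp, Pmp22 and Prx, which serve the myelin sheath, and S100b, Sox10, Ngfr, Cdh19 and Ncam1, which mark the Schwann lineage as a whole or its non-myelinating cells. They were chosen by gene symbol, and all 8 were found among the 54532 genes of the count table and passed the filter on low counts, which kept 16836 genes. Bulk RNA-seq was made from prostates of wild-type (WT), heterozygous Srd5a2+/- (Het) and null Srd5a2-/- (KO) mice, with 3 libraries per genotype and 9 in all. Srd5a2 encodes the type II 5-alpha-reductase, which converts testosterone to dihydrotestosterone. The Het and KO mice descend from Het males bred to WT C57BL6 females. No treatment is named. The allele is described only as null, so it is not limited to a cell type by anything in the sources used here, and the age of the mice, the prostate lobes taken and whether nerve or ganglia were trimmed away are not given there. Nothing states that each library came from its own animal, and the p-values then reflect only the variation among these 9 libraries, part of which may be technical.

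Schwann cells arise from the neural crest and wrap or ensheathe the axons of peripheral nerves. Large axons each receive a compact myelin sheath, built from lipids and a small set of proteins such as PMP22, MBP and, on the outer side, periaxin (Prx). Small autonomic and sensory axons, which supply the smooth muscle and glands of the prostate through the pelvic plexus, are mostly held in bundles by non-myelinating (Remak) Schwann cells, which carry NCAM1 and the p75 neurotrophin receptor (Ngfr). SOX10 is the transcription factor needed at every stage of the lineage, and myelin genes are among its targets. In bulk tissue, fewer Schwann cells and less RNA per cell cannot be told apart.

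The libraries held 16233392 to 24017791 counts, of which the 8 members together took 1331 to 3933. Srd5a2 itself stood at 0.512 to 1.15 CPM (read counts scaled to a common library size after TMM normalization) in the KO libraries, against 2.30 to 8.81 in WT and 2.37 to 5.19 in Het. Pbsn, the prostate secretory gene for probasin, was at 2508 to 13056 CPM in all 9 libraries. Het library 1 had the lowest fibroblast, smooth muscle, endothelium, basal epithelium, skeletal muscle and seminal vesicle list scores of the 9 (-1.02, -1.90, -1.63, -1.03, -3.03 and -6.57, where a score is the mean log2 CPM of a list less its mean over the libraries). Its prostate epithelium list score was the highest of the 9 (1.61). KO library 2 had the highest skeletal muscle score (5.31), with 2.54 in KO library 3, 1.998 in WT library 3, 1.55 in KO library 1 and -3.03 to -1.58 in the other 5. Sbp, a ventral prostate secretion, was under 100 CPM in WT libraries 1 and 3 and Het library 2.

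The sequences before the gene starts are shown first, because each member's count adds up every start of the gene and the starts of Pmp22 differ in kind. RefSeq windows on GRCm38.p6 were given for 4 of the 8 members (Prx, S100b, Pmp22 and Ngfr), with 7 starts among them, 4 of which belong to Pmp22. The 250 bases before a start are printed 5′ to 3′ on the gene's strand, and capitals mark CG pairs. The first Pmp22 window held 3 CG pairs and the second 14, while that of Prx held 2 and that of Ngfr 16. Over all 32851 windows the median was 6, and 29% held fewer than the first Pmp22 window and 70.6% fewer than the second.
Pmp22, first start (chr11:63128732-63128981, plus strand): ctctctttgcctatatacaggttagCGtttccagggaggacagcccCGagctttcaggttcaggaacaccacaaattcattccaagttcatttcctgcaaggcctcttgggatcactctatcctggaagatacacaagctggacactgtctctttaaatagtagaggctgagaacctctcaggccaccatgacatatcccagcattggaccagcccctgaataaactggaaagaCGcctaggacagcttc
Pmp22, second start (chr11:63131207-63131456, plus strand): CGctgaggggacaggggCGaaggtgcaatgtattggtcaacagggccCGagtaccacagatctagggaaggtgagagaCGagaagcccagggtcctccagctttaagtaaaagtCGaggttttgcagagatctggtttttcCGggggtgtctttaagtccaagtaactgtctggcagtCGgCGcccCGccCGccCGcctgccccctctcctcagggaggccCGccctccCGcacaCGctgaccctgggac
Prx (chr7:27499074-27499323, plus strand): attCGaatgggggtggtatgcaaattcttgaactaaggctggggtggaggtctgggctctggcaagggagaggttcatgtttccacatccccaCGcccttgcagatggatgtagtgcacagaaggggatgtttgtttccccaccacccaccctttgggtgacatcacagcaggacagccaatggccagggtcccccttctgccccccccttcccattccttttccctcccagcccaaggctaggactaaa
Ngfr (chr11:95587699-95587948, minus strand): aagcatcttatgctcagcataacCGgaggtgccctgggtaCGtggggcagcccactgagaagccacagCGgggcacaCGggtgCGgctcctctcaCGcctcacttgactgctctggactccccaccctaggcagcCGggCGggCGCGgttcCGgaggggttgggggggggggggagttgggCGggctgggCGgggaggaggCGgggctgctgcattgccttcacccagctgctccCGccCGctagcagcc
As background, Pmp22 is known to use alternative first exons, of which one serves myelinating Schwann cells and another is used widely outside nerve. None of the 4 windows was assigned to either exon here. The gene counts do not tell these apart, so how much of the Pmp22 signal comes from myelin was not tested. Short motifs were searched on both strands over each window and the 50 bases after the start: ACAAAG and ACAATG, cores read by SOX proteins, and GCGNGGGNG, read by EGR proteins such as EGR2. None of the 7 windows held any of them, against 18.7%, 12.6% and 12.3% of all windows, which says only that these letters do not occur there.

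Levels of different genes were compared in the authors' deposited FPKM, which are scaled by gene length. Pmp22 was the most abundant member, with a mean of 12.0 FPKM over the 9 libraries, followed by Ngfr (5.93), Mbp (5.29), Ncam1 (3.26), Sox10 (1.04), Prx (0.897), S100b (0.618) and Cdh19 (0.493). Of the steps between neighbours in this order, only those from Pmp22 to Ngfr (mean difference 6.04 FPKM, SD 4.14) and from Ncam1 to Sox10 (2.22, SD 1.02) held in 9 of 9 libraries. At each of the other 5 steps the mean difference was smaller than its SD, so Ngfr, Mbp and Ncam1 were not separated as neighbours, nor were Sox10, Prx, S100b and Cdh19. Oligodendrocyte genes, markers of the central nervous system cells that also use Mbp, were at 0 in most libraries: 5 or all 6 of Mog, Mobp, Opalin, Olig1, Olig2 and Hapln2 had no count in each library, and their summed level was at most 0.781 CPM. Of the 6 melanocyte genes, 4 to 6 had no count in each library, among them Tyr and Slc45a2 in all 9, and their summed level was 0 to 5.35 CPM.

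Among the myelinating members, all 3 KO libraries lay above all 3 WT libraries for each of the 3 genes, as in 8.14% of all genes tested, and none of the 3 passed the test (edgeR called 0% of genes). Mbp (ENSMUSG00000041607, chromosome 18), myelin basic protein, which holds the cytoplasmic faces of the sheath together, was at 37.1, 48.1 and 25.7 CPM in WT libraries 1 to 3, at 50.6, 29.5 and 49.2 in Het and at 54.9, 63.3 and 48.8 in KO. The lowest KO library exceeded the highest WT library by under 1 CPM. The log2 fold change from WT to KO was 0.59 (SE 0.27, 95% interval -0.00 to 1.19), with an edgeR adjusted p of 0.9996, the value that all 8 members shared in this contrast. Pmp22 (ENSMUSG00000018217, chromosome 11, 63128982 to 63159547, plus strand), a membrane protein of compact myelin, was at 19.0, 22.8 and 27.6 CPM in WT, 7.19, 47.2 and 22.4 in Het and 27.9, 47.9 and 36.0 in KO. Its Het libraries reached from the lowest value of the 9 to nearly the highest. From WT to KO the log2 fold change was 0.69 (SE 0.55, 95% interval -0.57 to 1.95). Prx (ENSMUSG00000053198, chromosome 7, 27499324 to 27520214, plus strand), a scaffold that links the sheath's outer membrane to the basal lamina, was at 2.98, 4.88 and 3.73 CPM in WT, 4.59, 7.54 and 3.26 in Het and 5.16, 5.97 and 7.69 in KO. From WT to KO it differed by 0.70 on the log2 scale (SE 0.41, 95% interval -0.22 to 1.62), and its Het libraries overlapped both other genotypes.

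**Figure D1:**
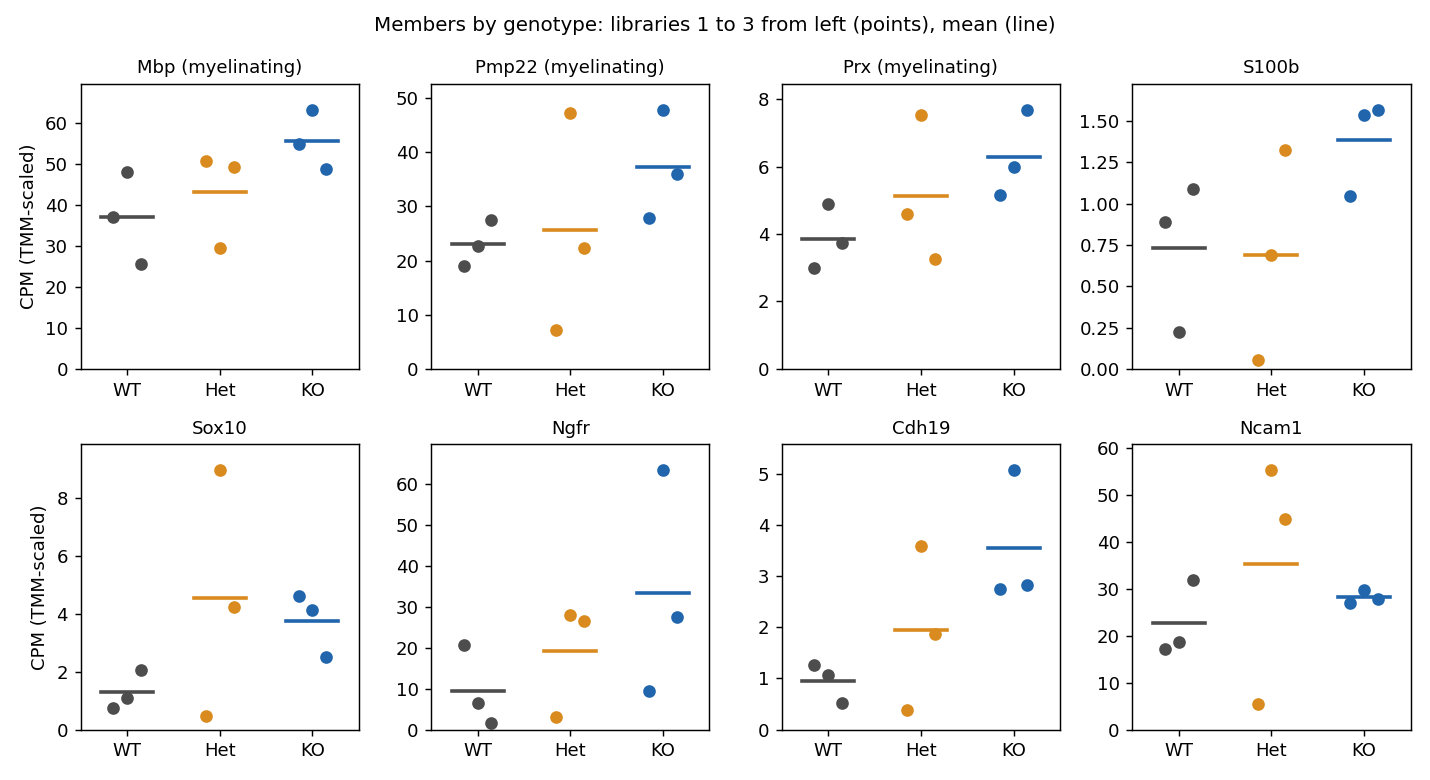
Level of each member in the 9 libraries, in CPM on TMM-scaled library sizes (y axis, from 0), by genotype (x axis); points are libraries 1 to 3 from left to right and the line is the mean of 3. The KO points of Mbp, Pmp22, Prx, Sox10 and Cdh19 all lie above the WT points, while the Het points of Sox10 run from 0.486 to 8.96 CPM.

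The other members varied more. Sox10 (ENSMUSG00000033006, chromosome 15, 79154908 to 79165240, minus strand) was at 0.732, 1.11 and 2.07 CPM in WT, 0.486, 8.96 and 4.25 in Het and 4.61, 4.15 and 2.51 in KO. All KO libraries lay above all WT libraries, and the Het libraries held both the lowest and the highest value of the 9. The log2 fold change was 1.52 (SE 0.86, 95% interval -0.39 to 3.43) in KO against WT and 1.80 (SE 0.86) in Het against WT, the latter with an edgeR adjusted p of 0.571. Cdh19 (ENSMUSG00000047216, chromosome 1, 110888326 to 110977584, minus strand), a cadherin of the Schwann lineage, was at 1.26, 1.07 and 0.518 CPM in WT, 0.378, 3.59 and 1.88 in Het and 2.75, 5.06 and 2.82 in KO. It had the largest difference of the members in KO against WT, 1.90 (SE 0.80, 95% interval 0.11 to 3.69), and was the only member below 0.05 before adjustment in edgeR, as were 3.57% of all genes tested. Its WT values rest on 10 to 24 reads per library.

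Ngfr (ENSMUSG00000000120, chromosome 11, 95568818 to 95587735, minus strand), the p75 neurotrophin receptor, was the least even member, at 20.7, 6.48 and 1.56 CPM in WT, 3.19, 28.1 and 26.5 in Het and 9.50, 63.4 and 27.6 in KO. The highest and lowest libraries differed 40.7-fold and all genotypes overlapped. The KO to WT difference was 1.81 on the log2 scale (SE 1.12, 95% interval -0.79 to 4.40) with all libraries, 0.95 without KO library 2 and 3.05 without WT library 1. Ncam1 (ENSMUSG00000039542, chromosome 9, 49502136 to 49798925, minus strand), a neural cell adhesion molecule also found on axons, was at 17.2, 18.7 and 31.9 CPM in WT, 5.46, 55.2 and 44.9 in Het and 27.0, 29.8 and 27.8 in KO. The KO libraries lay close together (SD 1.40 CPM, n = 3) inside the range of the WT libraries, and the log2 fold change was 0.32 (SE 0.67, 95% interval -1.22 to 1.85). S100b (ENSMUSG00000033208, chromosome 10, 76253853 to 76261159, plus strand), a calcium-binding protein of glia, was at 0.889, 0.222 and 1.09 CPM in WT, 0.0541, 0.689 and 1.32 in Het and 1.04, 1.54 and 1.57 in KO. With 1 to 30 reads per library it was the member with the fewest reads, with a KO to WT difference of 0.91 on the log2 scale (SE 1.08, 95% interval -1.50 to 3.33). The S100b gene overlaps Dip2a on the other strand, which averaged 249.6 reads per library, and no source used here says whether counting used strand, so S100b and Dip2a reads may not have been told apart. Mbp likewise overlaps the pseudogene Rpl21-ps8 (224 reads on average) and Prx the antisense RNA Gm15541 (12.7 reads).

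In KO against WT all 8 log2 fold changes were above 0, where 50.6% of all 16836 tested genes were, and 3 (Sox10, Ngfr and Cdh19) were above 1, where 8.43% of all tested genes were. In 5 of 8 members (Mbp, Pmp22, Prx, Sox10 and Cdh19) all KO libraries lay above all WT libraries, against the 8.14% above, and in none did they all lie below, against 6.04%. The median was 0.69 for the 3 myelinating members and 1.52 for the 5 others, against 0.01 for all tested genes. The call rate behind these values was 0%: edgeR called 0 of 16836 genes at an adjusted p under 0.05 in this contrast, while 601 genes had an unadjusted p under 0.05. DESeq2 called 14 genes (0.085% of those with an adjusted p) and limma voom 0, none of them a member in either tool. The members were chosen with earlier results of these data known, which had already shown nerve and Schwann cell genes higher in KO, so their common direction is not independent evidence. When the skeletal muscle score entered the fit 6 of 8 members stayed above 0 and the median of the 5 other members was 0.62. When the seminal vesicle score entered instead, 6 of 8 stayed above 0 and that median was 0.38, and in both fits Pmp22 and Ncam1 turned below 0. Leaving out any single library kept all 8 above 0, with a median over the members between 0.76 and 1.07 (0.81 with all libraries). Without the 3 libraries low in Sbp the median was 1.22 over the 8 members and 0.36 over the myelinating ones.

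**Figure D2:**
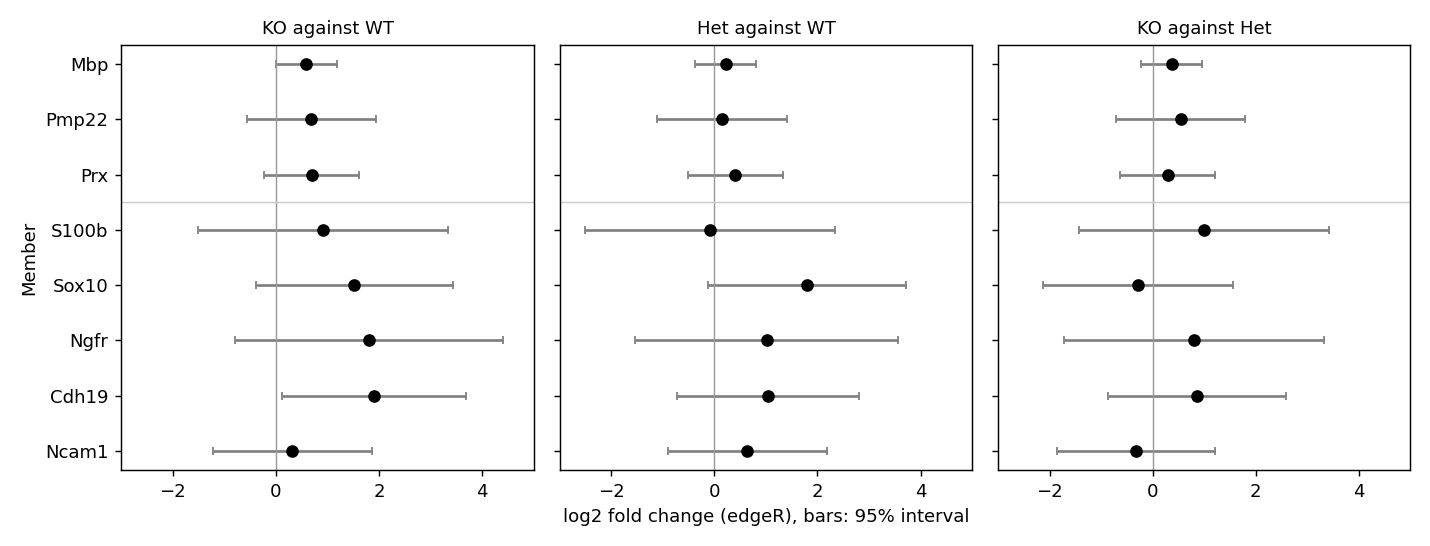
Log2 fold change of each member (y axis) in the 3 contrasts, fitted by edgeR over all genes, with 95% intervals as bars (x axis, log2 scale); the grey line separates the myelinating members from the others. All intervals except that of Cdh19 in KO against WT cross 0, and Mbp and Prx have the narrowest intervals.

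The Het libraries spread widely in most members, and a common shift of the members in Het against WT was not tested. Their log2 fold changes were above 0 in 7 of 8, against 50% of all tested genes, with a median of 0.22 for the myelinating members and 1.01 for the others, and 3 (Sox10, Ngfr and Cdh19) were above 1, against 7.47%. In no member did the Het libraries lie all above or all below the WT libraries, against 4.7% and 8.59% of tested genes. EdgeR called 0% of genes here too (1522 genes, 9.04%, at an unadjusted p under 0.05, among them no member), while DESeq2 called 205 (1.22%) and limma voom 0, none a member. Without Het library 2, the member median was 0.18 and none was above 1, and without Het library 1 it was 0.86 with 4 above 1. In KO against Het, 6 of 8 were above 0 (52% of all tested genes) and none above 1 (9.12%), Sox10 and Ncam1 stood at -0.28 (SE 0.83) and -0.32 (SE 0.67), and edgeR called 0% of genes (1048 genes, 6.22%, at an unadjusted p under 0.05, no member), DESeq2 169 (1.01%) and limma voom 0. In no member did the KO libraries lie all above or all below the Het libraries, against 7.8% and 4.12% of tested genes. Each pair of contrasts shares the libraries of 1 genotype, so their values are not independent of each other.

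Across libraries the members fell into a steadier and a more variable set that did not follow the labels of myelinating and other exactly. The SD of log2 CPM over the 9 libraries was 0.43 for Mbp and 0.48 for Prx, close to the median of all tested genes (0.47), then 0.82 for Pmp22, 0.96 for Ncam1, 1.16 for S100b and for Cdh19, 1.30 for Sox10 and 1.70 for Ngfr, which exceeded 94.4% of tested genes. Het library 1 held the lowest value of 5 members (Pmp22, Ncam1, Sox10, S100b and Cdh19), each at -2.42 to -1.81 log2 units from its own mean. Mbp stood at 0.21 and Prx at -0.07 in that same library. In Het library 2 Sox10, Ncam1, Ngfr and Cdh19 were at 1.08 to 1.91, Pmp22 at 0.89 and Prx at 0.63. S100b (-0.09) and Mbp (-0.56) lay below their own means there. The mean of the myelinating members less that of the others was 1.53 in Het library 1, 0.86 in WT library 2, 0.40 in WT library 3 and -0.15 in WT library 1, against -0.93 to -0.18 in the other 5 libraries.

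**Figure D3:**
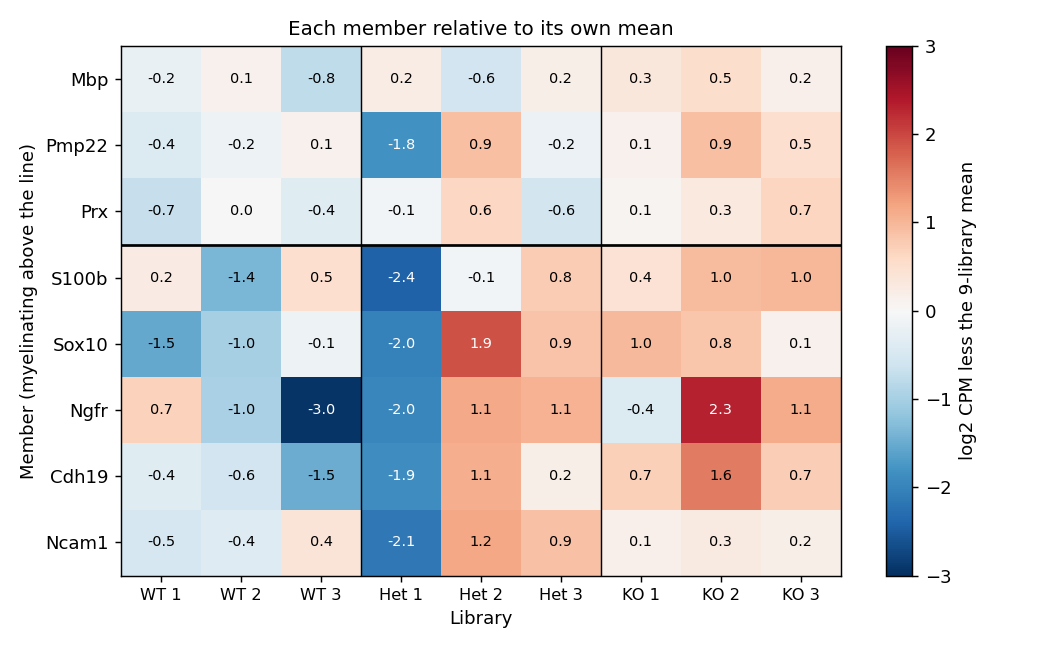
Log2 CPM (prior count 2) of each member in each library, less that gene's mean over the 9 libraries; rows are members, with the 3 myelinating ones above the horizontal line, and columns are libraries grouped by genotype. Het library 1 is the darkest blue column for Pmp22, S100b, Sox10, Cdh19 and Ncam1 but not for Mbp (0.21) or Prx (-0.07).

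As a measure of likeness, the root mean square difference between centred log2 CPM profiles was taken over the 9 libraries. The closest pair of members was Pmp22 and Ncam1 (0.46), followed by Mbp and Prx (0.56) and by Sox10 and Ncam1 (0.60). The farthest pair was Prx and Ngfr (1.51). Each member was also set against the mean profile of the other 7, and Pmp22 (0.40) and Cdh19 (0.49) lay nearest while Ngfr (1.22) and Mbp (0.90) lay farthest. Among the 14607 other genes averaging at least 1 CPM, those nearest the mean profile of the myelinating members were Jag1, a Notch ligand (0.11), Vsir (0.18), Sh3pxd2a (0.19), B4galt2 (0.19) and Epb41l2 (0.19), where the median gene was at 0.54. Those nearest the mean profile of the other members were Trim29 (0.25), Prkar1b (0.25), the epithelial keratin gene Krt7 (0.29) and Tppp3 (0.29), where the median was 1.08. These values describe 9 libraries that share their tissue make-up, and no test was applied to them.

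Other genes of the myelin sheath and of myelinating Schwann cells made a list of 21, of which 17 were tested. In KO against WT 17 of 17 were above 0, against 50.6% of all tested genes, with a median of 0.93. None passed over all genes in edgeR. In Het against WT 15 were above 0 (50% of all tested genes) with a median of 0.74, and in KO against Het 9 were (52%), with a median of 0.17. The same shares apply to the lists below. All these lists were chosen with earlier results of these data known, so their direction is not independent evidence. Drp2, which binds periaxin in the outer Schwann cell membrane, had a KO mean of 2.35 ± 1.18 CPM against 0.355 ± 0.310 in WT (log2 fold change 2.71, SE 1.44; mean ± SD of 3 libraries here and below). For Gjc3, a glial connexin, the means were 1.14 ± 0.420 and 0.156 ± 0.156 CPM (2.83, SE 1.57). Both fold changes rest on WT values near 0. A gene this low in WT passed the low-count filter mainly through Het or KO libraries, which favours a value above 0 against WT. In WT libraries 1 to 3 Drp2 was at 0.575, 0.488 and 0 CPM and Gjc3 at 0.157, 0 and 0.311 CPM. Egr2, the transcription factor that drives myelination, averaged 1.44 ± 0.679 in KO, 0.756 ± 0.302 in WT and 3.09 ± 4.92 in Het, where a single library held 8.77 CPM. The score of the list was lowest in Het library 1 (-1.67). Its gene Gjb1 was instead at its highest there (88.9 CPM) and at its lowest in Het library 2 (16.5 CPM). How much of the list's signal comes from Schwann cells was not tested.

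Of 20 other genes of the Schwann lineage and its non-myelinating cells, all were tested and 18 were above 0 in KO against WT, with a median of 0.97 and none that passed. In Het against WT 17 were above 0 with a median of 0.57, and in KO against Het 13 were, with a median of 0.75. Cadm4 and Gap43 had an edgeR unadjusted p under 0.05 in KO against WT, as did 3.57% of all genes tested. Cadm4, a cell adhesion molecule of Schwann cells that epithelia can also make, was at 23.7 ± 4.60 CPM in KO and 8.88 ± 5.94 in WT (log2 fold change 1.41, SE 0.47). It was also higher in Het against WT (1.46, SE 0.47). Gap43, a growth-associated protein of axons and immature Schwann cells, was at 8.71 ± 6.50 CPM in KO and 1.99 ± 0.504 in WT (2.13, SE 0.94). Its log2 fold change in Het against WT was 1.79 (SE 0.93). In KO against WT Chl1, an adhesion molecule of the L1 family, was at 1.49 (SE 0.68) and Matn2, a matrix protein made by Schwann cells, at 0.73 (SE 0.40). L1cam, a marker of unmyelinated nerve, was at 0.37 (SE 0.79), and Scn7a, a sodium channel gene of non-myelinating Schwann cells, at 0.34 (SE 0.42). Erbb3, the neuregulin receptor of Schwann cells that epithelial cells also express, was at 94.2 ± 8.86 CPM in KO, 114 ± 9.32 in Het and 92.6 ± 15.02 in WT (0.02, SE 0.15 in KO against WT). It stood at 110.6 CPM in Het library 1, where Sox10 was at its lowest, and Cadm4 had its highest value of the 9, 30.5 CPM, in that same library.

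The list of neuron and axon genes had 28 tested members of 29, with 26 above 0 in KO against WT, a median of 1.69, also with Chat set to its lower bound against a WT floor of 3 counts, and none that passed over all genes. In Het against WT the list had 25 above 0 and nearly the same median, 1.67. In KO against Het it had 22 above 0 and a median of 0.20. Its scores were -3.09 in Het library 1, -2.08 in WT library 3 and -0.89 in WT library 2, the 3 libraries in which the mean of the 5 other members was lowest (-2.08, -0.74 and -0.86), and 1.83 in KO library 2 and 1.77 in Het library 2, the pair in which that mean was highest (1.19 and 1.04). The order did not hold throughout: the axon score was 0.13 in WT library 1 and -0.11 in KO library 1, where the mean of the 5 members was -0.29 and 0.37. Tubb3, a neuronal tubulin, was at 0 CPM in Het library 1 and at 48.5 and 48.1 CPM in Het library 2 and KO library 2. Th, the rate-limiting enzyme of catecholamine synthesis in sympathetic neurons, was also at 0 in Het library 1 and highest (12.9 CPM) in KO library 2. Phox2a, a transcription factor of autonomic neurons, had means of 3.57 ± 1.77 CPM in KO, 1.34 ± 1.19 in Het and 0.331 ± 0.165 in WT (3.41, SE 1.27, edgeR adjusted p of 0.9996). Nos1, the neuronal nitric oxide synthase, had a mean of 18.5 ± 15.3 CPM in KO against 0.903 ± 0.681 in WT (4.35, SE 1.67), and Dpysl3, a protein of growing axons, a log2 fold change of 0.61 (SE 0.27). Chat, the enzyme that makes acetylcholine, had no count in the WT libraries, in Het library 1 or in KO library 1, and stood at 0.276 and 0.717 CPM in Het libraries 2 and 3 and at 0.512 and 1.94 CPM in KO libraries 2 and 3.

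**Figure D4:**
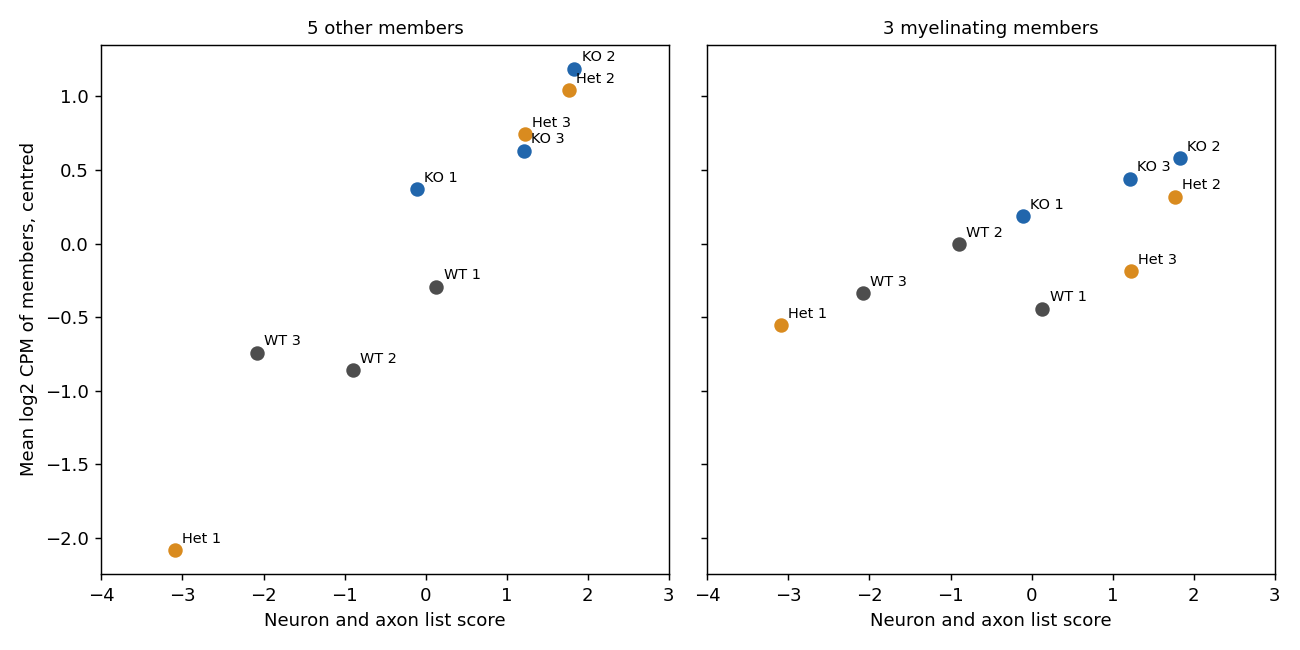
Mean centred log2 CPM of the 5 other members (left, y axis) and of the 3 myelinating members (right, y axis) against the score of the neuron and axon list (x axis, same scale), with 1 point per library coloured by genotype. The other members run from -2.08 in Het library 1 to 1.19 in KO library 2, while the myelinating members run only from -0.56 to 0.58 over the same libraries.

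Signals that pass between axons and Schwann cells, a list of 16 with 14 tested, had 10 above 0 in KO against WT and a median of 0.22. Gfra1 and Ntrk3, receptors for GDNF-family ligands and for neurotrophin 3, had edgeR unadjusted p under 0.05 (1.34, SE 0.56 and 1.46, SE 0.57). So did 3.57% of all genes tested, and none of the list passed over all genes. Nrg1, the axonal neuregulin that sets myelin thickness, was at 1.27 (SE 0.88) and Ntrk2, a neurotrophin receptor, at 0.51 (SE 0.43). The genes for GDNF and BDNF themselves were below the filter.

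Markers of other tissues moved with the members in part. Skeletal muscle genes, whose nerves are rich in myelin, were above 0 in 19 of 19 tested in KO against WT (median 3.52, or 1.46 without KO library 2 and 6.59 without WT library 3). Their summed level was 852 to 7119 CPM in KO, 357 to 1477 in WT and 150.5 to 708 in Het, with Acta1 highest in KO library 2 (1849 CPM) and Ckm at 460 CPM there and 2.38 to 58.9 in the other 8. That library also had the highest Mbp, Pmp22, Ngfr and Cdh19 values. Without that library the member median in KO against WT was 0.78. The median of the 5 other members was then 0.95, against 1.52 with all libraries, and that of the myelinating members 0.48, against 0.69. WT library 3 had the third highest muscle score and the lowest Mbp and Ngfr values of the 9, while its Pmp22, Ncam1, Sox10 and S100b values were the highest of the 3 WT libraries. Genes of muscle satellite cells and the neuromuscular junction, which use Ncam1, were mostly at 0: the list of 10 summed to 0.378 to 14.3 CPM, and 4 to 9 members had no count in each library but KO library 2, where all had at least 1. Neuroendocrine genes, also a source of Ncam1, had 5 of 5 tested above 0 (median 2.84), with summed levels of 8.24 to 36.5 CPM in KO, 2.07 to 6.43 in WT and 2.59 to 34.8 in Het. Basal epithelial genes, cells that can carry Ngfr, had 6 of 7 above 0 (median 0.64) and summed to 473 to 742 CPM in KO, 302 to 494 in WT and 243 to 431 in Het. Fibroblast genes had 7 of 8 above 0 (median 0.41), endothelial genes 7 of 8 (0.34), smooth muscle genes 5 of 8 (0.04), adipocyte genes 3 of 8 (-0.25) and the single tested melanocyte gene, Pmel, 0.36. Seminal vesicle genes had 6 of 8 above 0 (median 2.21). The part of these tissues in the members' values was not tested. The covariate fits given above cannot fully separate tissue from genotype, because the scores differed with genotype. Muscle scores were 1.55 to 5.31 in KO, -3.03 to -1.58 in Het and -2.72, -2.24 and 1.998 in WT. Seminal vesicle scores were 2.56 to 3.57 in KO, -6.57 to 0.01 in Het and -2.49, -0.05 and 2.83 in WT.

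**Figure D5:**
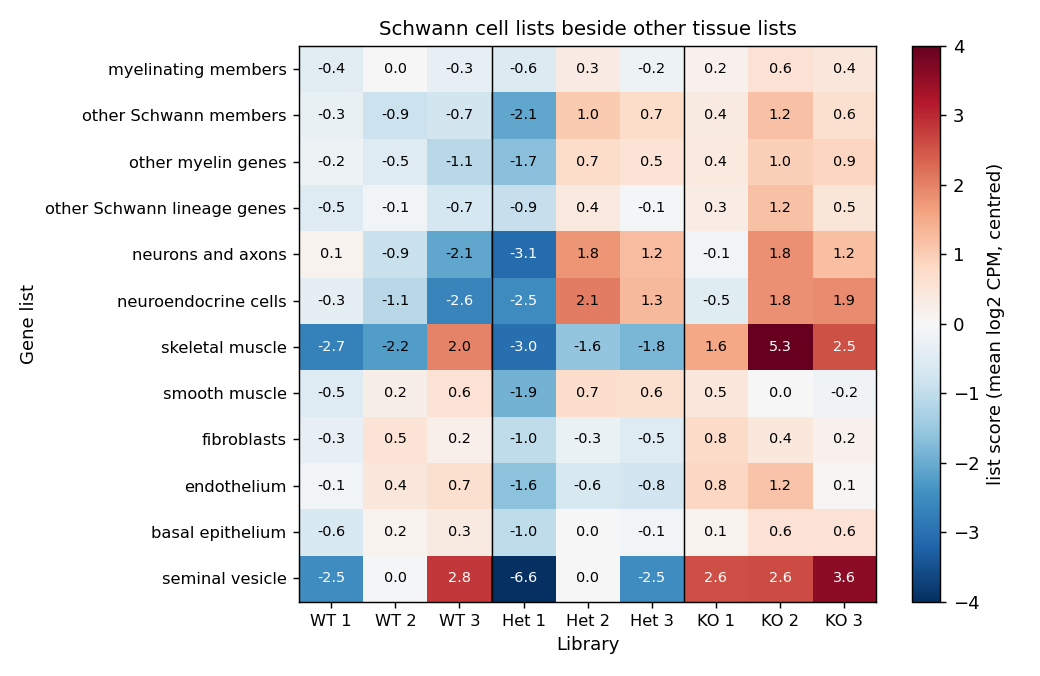
Score of each gene list (rows; mean log2 CPM of its tested genes, centred over the 9 libraries) in each library (columns, grouped by genotype), with the colour scale ending at -4 and 4. Het library 1 is the lowest column of every row but the neuroendocrine one, and the skeletal muscle row peaks at 5.31 in KO library 2.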

How the data were processed

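Per the labels' protocols, total RNA from a Qiagen column kit went into libraries enriched for polyA. The authors deposited raw read counts per gene and FPKM values per library, with GRCm38 named as the build in the submitters' processing notes. No source used here names the aligner, the counter or the strand setting. Genotypes come from the library names, and libraries 1 to 3 of a genotype are numbered by accession order, which pairs none of them. Counts of all 9 libraries were fitted with edgeR 4.0.16 in R 4.3.3 (quasi-likelihood, robust, TMM, filterByExpr, genotype as the only factor), with Benjamini-Hochberg adjustment across every gene tested and 0.05 as the threshold. Each standard error is the size of the log2 fold change over the root of its F statistic. Log2 CPM used a prior count of 2. FPKM served only to compare genes. DESeq2 1.42.0, limma 3.58.1 (voom) and the settings named in the closing section were alternatives. The fit was tested on simulated data. All 8 members are named, with up to 4 genes of smallest p per list (KO against WT) and fixed defining markers; for lists of other tissues these are given as counts and levels. Some genes within this rule are left unreported here. The members and lists were chosen with earlier results of these data known.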

Additional observations from a re-analysis of the deposited data

How the results depend on the processing

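No member passed over all genes in any contrast under any alternative run, in edgeR, DESeq2 or limma voom, and 429 member values kept their direction while 27 reversed. Scaling moved the median of all genes by under 0.1. With the skeletal muscle score in the fit Pmp22 stood at -0.18 and Ncam1 at -0.48 in KO against WT, S100b at 0.16 in Het against WT, and Pmp22 at -0.49 and S100b at -0.12 in KO against Het. With the seminal vesicle score Pmp22 stood at -0.13 and Ncam1 at -0.66 in KO against WT, Mbp at -0.13 and S100b at 0.41 in Het against WT, and Pmp22 at -0.79, Prx at -0.21 and S100b at -0.24 in KO against Het. Without the 3 libraries low in Sbp, which leaves 1 WT library assumed to vary like the others, Pmp22 stood at -0.63, Prx at -0.32 and S100b at 1.60 in Het against WT, and Sox10 at 0.67 and Ncam1 at 0.17 in KO against Het. With limma voom Pmp22 stood at -0.17 in Het against WT, and Sox10 at 0.33 and Ncam1 at 0.20 in KO against Het. Leaving out each library in turn gave -0.67 to 0.59 for Pmp22 and -0.95 to 0.45 for S100b in Het against WT, and -0.81 to 0.68 for Sox10, -0.040 to 1.24 for Ngfr and -0.82 to 0.17 for Ncam1 in KO against Het. The cause of these reversals was not tested.

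Counts of genes called, 0 in each contrast, changed as follows. DESeq2 called 14 in KO against WT, 205 in Het against WT and 169 in KO against Het. The seminal vesicle score gave 274 in Het against WT and 54 in KO against Het, fitting only the groups compared gave 1 in KO against WT, no low-count filter gave 2 in KO against Het, and leaving out the libraries low in Sbp gave 1 in Het against WT and 1 in KO against Het. Leaving out 1 library gave 0 to 1 in KO against WT, 0 to 258 in Het against WT and 0 to 18 in KO against Het, the upper values each without Het library 1. The cause was not tested. No paired analysis was possible because the replicate numbers follow accession order and pair no samples. Depth limits S100b, Cdh19 and Sox10 most, with as few as 1, 7 and 9 reads in a library.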

Other observations

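Vip, Npy and Dbh, genes for transmitters of autonomic axons or their synthesis, were chosen after their values were seen. Vip, a peptide of parasympathetic and nitrergic neurons, had 0, 65.1 and 19.9 CPM in the Het libraries, against 6.01, 0.710 and 0 for WT and 3.41, 16.9 and 20.2 for KO. Npy, a co-transmitter of sympathetic neurons, was at 8.16, 5.33 and 1.45 CPM in WT, 0.432, 42.5 and 17.7 in Het and 5.93, 23.2 and 12.2 in KO. Dbh, which makes noradrenaline, was at 7.48, 2.44 and 0.363 CPM for WT, 0, 7.68 and 4.91 for Het and 1.21, 17.3 and 3.71 for KO. All 3 genes had overlapping genotypes. None passed over all genes in edgeR, and from WT to KO the log2 fold changes of Vip, Npy and Dbh were 2.60 (SE 1.95), 1.47 (SE 1.24) and 1.11 (SE 1.57).

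Nefh, the heavy neurofilament gene, had other values than the light and medium neurofilament genes. Its KO mean was 64.5 ± 10.8 CPM (SD over 3 libraries), against 203 ± 213 for WT and 200.4 ± 259 for Het, with 495 CPM in Het library 2, where Nefl stood at 13.2 CPM. In KO against WT its log2 fold change was -1.65 (SE 1.30), against 2.73 (SE 1.75) for Nefl and 2.36 (SE 1.44) for Nefm, and the cause was not tested.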
